A study of Mus musculus with 48 samples.

Results

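The 10 genes described here belong to the antioxidant programme of the transcription factor NRF2 in the mouse. They were Nfe2l2, which encodes NRF2 itself, and 9 genes that NRF2 is known to induce: Nqo1, Hmox1, Gclc, Gclm, Srxn1, Txnrd1, Slc7a11, G6pdx and Me1. They were taken by name from the deposited tables, and all 10 of the 10 were found among the 46517 genes counted. The question asked of them was how far this programme differed between liver, hepatocytes isolated from it, spheroids cultured from those hepatocytes, and spheroids that had lived in the eye.

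NRF2 is held in the cytoplasm by KEAP1, which delivers it to a ubiquitin ligase for degradation. Oxidants and electrophiles react with cysteines of KEAP1, and NRF2 then escapes, enters the nucleus, pairs with small MAF proteins and binds antioxidant response elements. Its control is therefore mainly at the protein level, and the mRNA of Nfe2l2 does not measure NRF2 activity. In liver the targets supply glutathione, regenerate thioredoxin and NADPH, break down heme and conjugate drugs. None of these targets answers to NRF2 alone, since ATF4 also drives Slc7a11 and lipogenic factors also drive Me1 and G6pdx.

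Bulk RNA was sequenced by Smart-seq3 from 16 samples in 5 groups, and each sample was read as 3 technical libraries that were summed here. All animals carry the labels WT Albino and C57BL/6N, while the study's methods list an albino B6/J line, so the substrain is not settled. The mice were adults of at least 3 months and of either sex, and the labels do not give the sex or age of a sample. Livers (3 samples) were endogenous tissue of donor mice. Hepatocytes (3 samples) were primary cells isolated from donor livers by enzyme perfusion and a density gradient, a hepatocyte-enriched and not a pure fraction. In vitro spheroids (2 samples) were made from that fraction and kept in culture, at first with serum and with dexamethasone, insulin, transferrin and selenium in the medium. Explants (5 samples, numbered 1, 2, 4, 5 and 6) were spheroids engrafted in the anterior chamber of the eye and dissected 2 months after transplantation together with the iris they had grown on. Irises (3 samples) came from eyes without a graft. The study describes the samples of a group as biological replicates, but the labels tie no sample to an animal or culture, and 2 spheroid samples were analysed here.

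Total counts per sample ran from 2718518 in a hepatocyte preparation to 6789648 in an explant. The tissue labels matched their markers. Summed over 12 hepatocyte markers, TPM (counts scaled by exon length and depth) were 16661 to 17197 in livers and 1931 to 2311 in irises, where Alb alone was at 753 to 861 TPM. The source of these hepatocyte marker reads in irises was not tested. The deposited tables imply that iris made up 59% to 82% of the 5 explants. Summed over 10 macrophage markers, levels were 229 to 380 TPM in hepatocytes, 736 to 1731 in livers, 819 to 1038 in spheroids, 1026 to 1087 in irises and 1458 to 4167 in explants, and no marker of this list was at 0 in any sample. In bulk RNA, fewer cells of a type and less RNA per cell cannot be told apart. Counts of the 10 genes lay between 8 and 3659 per sample, and at most 0.356 per base of exon in any library, where the highest gene of each library was at 1.44 to 1.70.

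The sequence that NRF2 binds is the antioxidant response element. Its core was searched as TGACNNNGC on both strands, from 250 bases before to 50 bases after each transcription start in RefSeq (GRCm38.p6). The table listed 11 promoters for 8 of the 10 genes, and 6 of the 11, each of another gene, held the core, where 12.4% of all 32851 promoters did. Among 28 other NRF2 targets with a listed promoter, 7 held it. Me1 held it at 1 of 2 listed starts and Txnrd1 at 1 of 3. The stretches below are read 5′ to 3′ along the gene, with the core, or its reverse complement, in capitals. They are shown because this element is what NRF2 is known to bind.

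Me1, chr9:86695902-86695930, minus strand: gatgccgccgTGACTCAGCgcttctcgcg

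G6pdx, chrX:74428919-74428947, minus strand: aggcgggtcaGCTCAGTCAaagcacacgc

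Gclm, chr3:122245413-122245441, plus strand: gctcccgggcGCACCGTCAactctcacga

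Txnrd1, chr10:82859104-82859132, plus strand: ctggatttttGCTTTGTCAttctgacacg

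Nfe2l2, chr2:75704885-75704913, minus strand: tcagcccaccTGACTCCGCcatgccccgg

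In Me1, which encodes malic enzyme, the core began 6 bases before the start, and its form TGACTCAGC stood in 0.454% of all promoters. In Nfe2l2 it began 240 bases before the start. The cores of Gclm, Txnrd1 and G6pdx, on the strand opposite to the gene, began 134, 92 and 57 bases before it. These matches are letters in a window and do not show that NRF2 bound there. The windows of Nqo1 and Slc7a11 did not hold these letters, and sequence outside the windows was not searched.

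The promoter of Srxn1 (sulfiredoxin) is printed whole, at chr2:152105274-152105573 on the plus strand, because it carried a further element. The first stretch in capitals, TGAGTCAGC, starts 45 bases before the start and was noticed in the sequence, not searched for in advance. It stood in 0.414% of all promoters, and in no other listed promoter of the 10 genes. The second is the reverse complement of the searched core and lies within the transcribed part.

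Srxn1: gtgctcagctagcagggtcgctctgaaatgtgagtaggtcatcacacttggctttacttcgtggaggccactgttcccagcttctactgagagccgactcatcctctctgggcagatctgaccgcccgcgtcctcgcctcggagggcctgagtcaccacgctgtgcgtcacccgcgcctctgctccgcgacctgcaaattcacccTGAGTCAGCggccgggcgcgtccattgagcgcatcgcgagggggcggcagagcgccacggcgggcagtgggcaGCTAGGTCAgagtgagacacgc

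**Figure D1:**
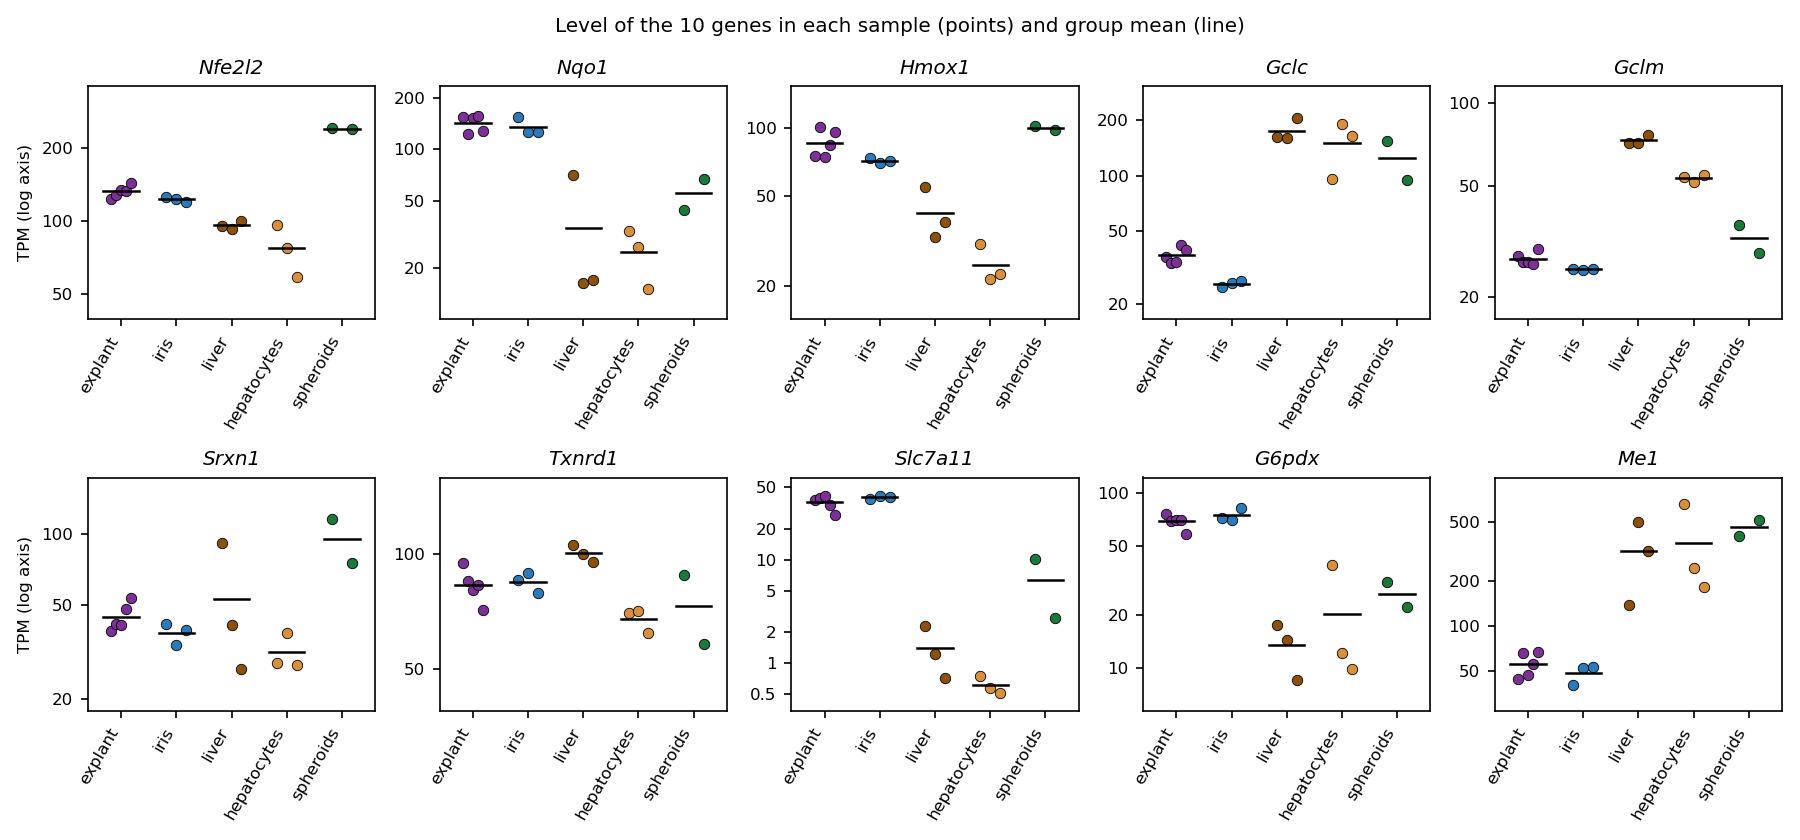
Level of each gene in each of the 16 samples (points, TPM on a log axis) with the group mean as a line. Nfe2l2 was highest in the 2 spheroids, Slc7a11 and G6pdx were high in irises and explants and low in the liver-derived groups, and Gclc and Me1 showed the opposite order.

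Nfe2l2 (chromosome 2, 75675513 to 75704641) stood at 95.1, 93.1 and 99.7 TPM in livers 1 to 3 and at 96.3, 77.2 and 58.7 TPM in hepatocytes 1 to 3. In the spheroids it stood at 242.1 and 241.9 TPM. Both spheroids lay far above every liver and every hepatocyte preparation. The gene was higher in spheroids than in hepatocytes by a log2 difference of 1.32 ± 0.21 (SE; 2.50-fold; edgeR quasi-likelihood test with Benjamini-Hochberg adjustment, adjusted p = 0.00431), and higher than in livers by 1.21 ± 0.16 (edgeR, adjusted p = 0.00216). In irises it was at 125.7, 123.6 and 120.2 TPM and in explants at 123.9, 128.0, 135.0, 133.4 and 143.5 TPM, and these groups overlapped.

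A gene is called below where its adjusted p was under 0.05 and its absolute log2 difference over 1. Between spheroids and hepatocytes 4 of the 10 genes were called higher, where 8.13% of 12247 genes tested were, and 1 was called lower, where 9.11% were. The 4 were Nfe2l2, Hmox1, Srxn1 and Slc7a11, and the 1 was Gclm. The median log2 difference of the 10 was 0.44, against 0.01 over all genes tested. All 10 passed the filter on low counts in every comparison.

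Slc7a11, the cystine importer xCT that feeds glutathione synthesis, was nearly silent in liver. It was read at 2.30, 1.21 and 0.71 TPM in the 3 livers and at 0.75, 0.57 and 0.52 TPM in the 3 hepatocyte preparations, the latter from 8 to 15 counts a sample. The spheroids gave 10.1 and 2.72 TPM, from 185 and 47 counts. Both were above all livers and hepatocytes, but the first was far above the second. Spheroids exceeded hepatocytes by a log2 difference of 2.98 ± 0.51 (7.89-fold; edgeR, adjusted p = 0.0058), which was 1.91 without spheroid 1 and still called. They exceeded livers by 2.03 ± 0.57 (edgeR, adjusted p = 0.0298), and that call was lost without spheroid 1 (0.93, adjusted p = 0.292), without liver 2 (1.95, adjusted p = 0.105) and without liver 3 (1.71, adjusted p = 0.0757).

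Genes driven by ATF4, the amino acid and unfolded protein response factor that shares Slc7a11 with NRF2, moved in the same samples. Of 12 genes in this list, which includes Atf4 itself, 8 were called higher in spheroids than in hepatocytes, with a median log2 difference of 1.87. The largest were Psat1 at 4.48 and Phgdh at 4.00, enzymes of serine synthesis, Asns at 4.19, asparagine synthetase, and Ddit4 at 2.75, an inhibitor of mTORC1. Summed over the 12, levels were 2057 and 1482 TPM in spheroids 1 and 2 and 329 to 622 TPM in hepatocytes. Their part in the level of Slc7a11 was not tested.

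Hmox1 (chromosome 8, 75093591 to 75100596), heme oxygenase 1, was at 54.8, 32.9 and 38.1 TPM in livers and at 30.5, 21.3 and 22.5 TPM in hepatocytes. Spheroids gave 102.0 and 97.6 TPM. Both were above every liver and hepatocyte sample. The log2 difference was 1.68 ± 0.20 against hepatocytes (3.20-fold; edgeR, adjusted p = 0.00138) and 1.13 ± 0.22 against livers (edgeR, adjusted p = 0.00843), and without liver 2 the latter was 1.00, just under the fold limit. Macrophages are a known site of heme oxygenase, and of the 10 macrophage markers 6 were called higher in spheroids than in hepatocytes, as were 3 of 7 Kupffer cell markers, whose summed levels were 520 and 596 TPM against 125 to 269. Against livers the macrophage sums overlapped and the 1 marker called was Csf1r, lower in spheroids. The Kupffer sums of livers, 247, 381 and 490 TPM, lay below both spheroids, the median log2 difference of the 7 markers was 0.80, and Vsig4 was called higher. The part of macrophage or Kupffer cell RNA in the level of Hmox1 was not tested.

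Srxn1, which reactivates overoxidised peroxiredoxins and whose promoter is printed above, was at 28.3, 38.04 and 27.7 TPM in hepatocytes and at 115.1 and 74.8 TPM in spheroids. The groups did not overlap, and the log2 difference was 1.25 ± 0.20 (2.38-fold; edgeR, adjusted p = 0.00439). Livers spread from 26.7 and 40.9 TPM in livers 3 and 2 to 91.4 TPM in liver 1. Liver 1 therefore lay between the spheroids, and against livers the log2 difference of 0.72 ± 0.42 was not called (edgeR, adjusted p = 0.224), whereas without liver 1 it was 1.31 (edgeR, adjusted p = 0.00662).

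The glutathione pair did not follow. Glutamate-cysteine ligase, the rate-limiting enzyme of glutathione synthesis, is built from a catalytic subunit (Gclc) and a modifier subunit (Gclm). Gclm was at 71.4, 71.4 and 76.5 TPM in livers, 53.9, 51.9 and 55.0 TPM in hepatocytes and 36.4 and 28.8 TPM in spheroids. These 3 groups did not overlap in any pair, in falling order. Gclm was lower in spheroids than in hepatocytes by a log2 difference of -1.06 ± 0.16 (edgeR, adjusted p = 0.00306) and than in livers by -1.30 ± 0.17 (edgeR, adjusted p = 0.00199). The first call rests on the fold limit, since the difference was -0.98 without hepatocytes 3 and -0.79 when samples were scaled by library size alone (edgeR, adjusted p = 0.0174 and 0.0104). Gclc was at 161.8, 160.2 and 205.1 TPM in livers, 95.7, 189.9 and 163.7 TPM in hepatocytes and 154.4 and 94.7 TPM in spheroids. Its spheroid values fell within or beside the hepatocyte range, and its log2 difference of -0.62 ± 0.31 was not called (edgeR, adjusted p = 0.18).

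Nqo1, the quinone reductase often used as the reference target of NRF2, was at 33.4, 26.6 and 15.1 TPM in hepatocytes and at 44.1 and 66.8 TPM in spheroids. Although both spheroids lay above all hepatocytes, the log2 difference of 0.84 ± 0.36 was not called (edgeR, adjusted p = 0.127). Txnrd1, cytosolic thioredoxin reductase, was at 70.1, 71.2 and 62.4 TPM in hepatocytes, 88.1 and 58.4 TPM in spheroids and 106.0, 100.1 and 95.7 TPM in livers. The hepatocyte values lay within the range of the pair of spheroids, and all livers lay above both groups. Txnrd1 differed from hepatocytes by -0.24 ± 0.17 in log2 and from livers by -0.59 ± 0.18 (edgeR, adjusted p = 0.332 and 0.04), the latter under the fold limit, and the first turned to 0.04 with library size alone.

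G6pdx and Me1, whose enzymes make NADPH, showed no difference between spheroids and hepatocytes that could be seen over their spread. G6pdx, glucose-6-phosphate dehydrogenase of the pentose phosphate pathway, was at 38.6, 12.1 and 9.93 TPM in hepatocytes and 30.9 and 22.2 TPM in spheroids. Me1 was at 665.8, 244.5 and 184.1 TPM in hepatocytes and 405.0 and 519.9 TPM in spheroids. In both genes hepatocytes 1 lay above the spheroids and hepatocytes 2 and 3 below. Their log2 differences were 0.05 ± 0.52 and 0.05 ± 0.50, and 2 standard errors reach about 2-fold either way. Reads in 418 of the 3080 exon bases of G6pdx (13.6%) also lie in Ikbkg on the opposite strand, were counted for both genes and cannot be assigned.

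**Figure D2:**
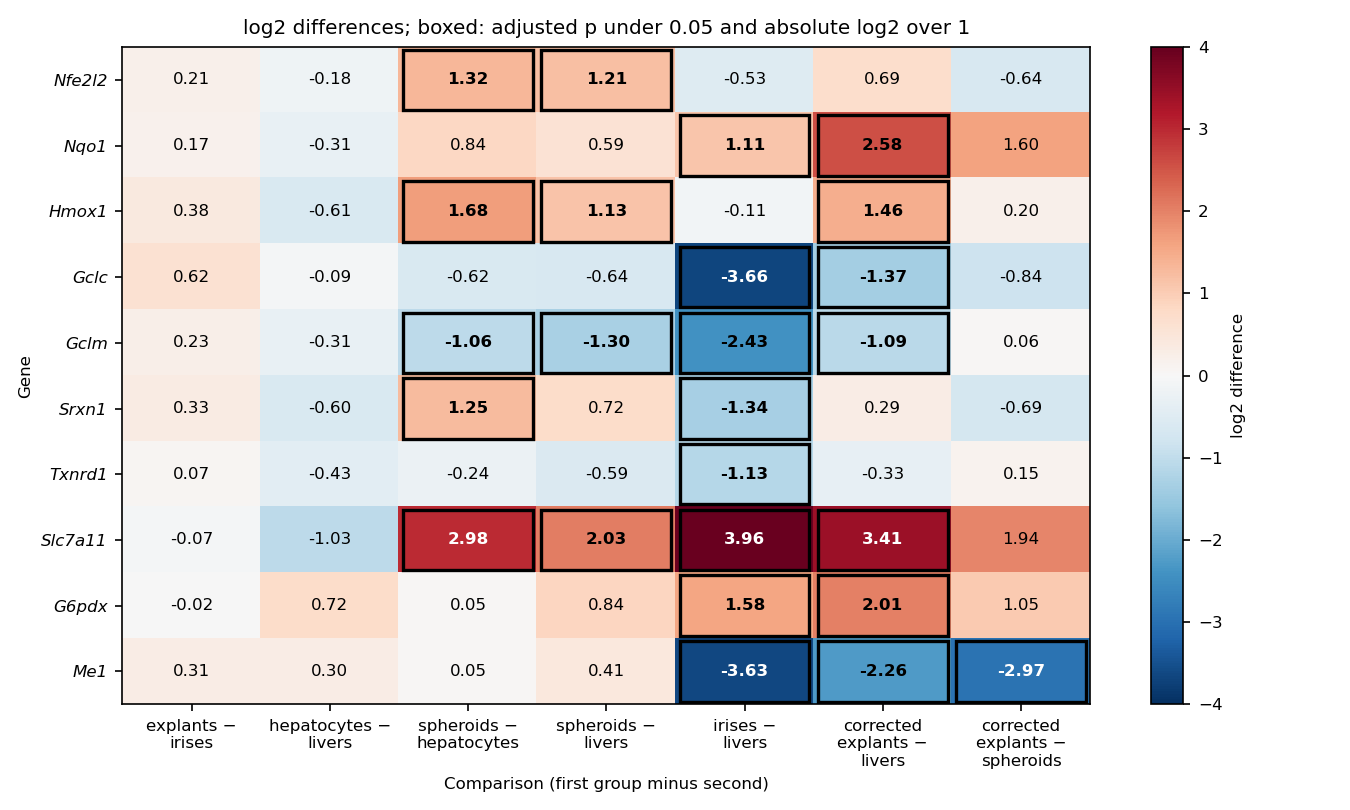
log2 differences of the 10 genes in the 7 comparisons (colour and number, first group minus second), with boxed values called at an adjusted p under 0.05 and an absolute log2 over 1. No value is boxed for explants against irises or hepatocytes against livers, and the columns that share a group of samples are not independent of each other.

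Against livers, 4 of the 10 genes were called in spheroids, where 19.2% of 12959 genes tested were called in either direction. Nfe2l2, Hmox1 and Slc7a11 were higher and Gclm was lower. Both spheroid comparisons use the same 2 spheroids. Without liver 1 the number called higher was 6, with Nqo1 at 1.58, Srxn1 at 1.31 and G6pdx at 1.04 added (edgeR, adjusted p = 0.0101, 0.00662 and 0.0454). Without liver 2 it was 1.

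No gene of the 10 was called between isolated hepatocytes and livers. The count was 0 in edgeR, 0 in DESeq2 and 0 in limma-voom, where edgeR called 2.72% of 12236 genes. At an unadjusted p under 0.05, 3 of the 10 were lower, where 1808 of the 12236 genes were. These 3 were Txnrd1 at -0.43 ± 0.11, Hmox1 at -0.61 ± 0.23 and Gclm at -0.31 ± 0.12 (edgeR, adjusted p = 0.068, 0.145 and 0.147). For Txnrd1, Hmox1 and Gclm every hepatocyte sample lay below every liver. With 3 samples a side such a separation is not a test, and none of these genes was called. In the same comparison 4 of 10 macrophage markers were called lower and 8 of 10 immediate early genes higher, and their part was not tested. The median of the 10 genes was -0.31, against 0.01 over all genes.

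**Figure D3:**
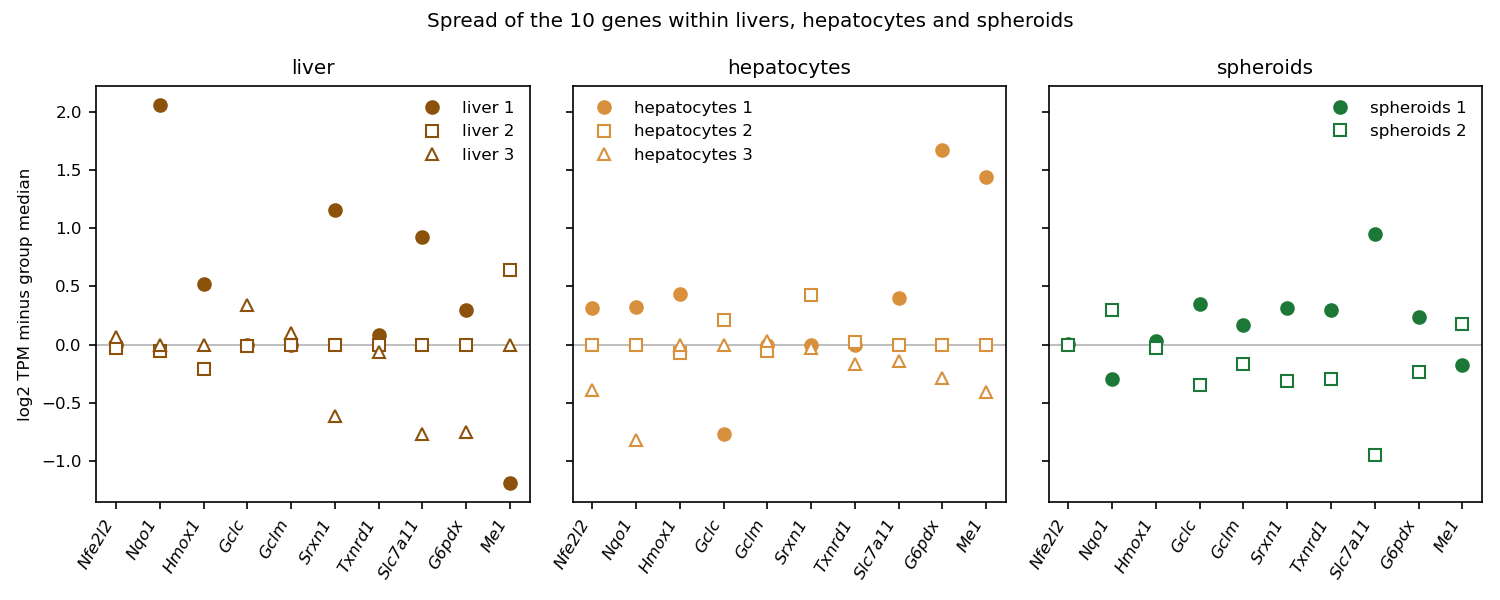
Each gene's log2 TPM minus the median of its group, for the 3 livers, 3 hepatocyte preparations and 2 spheroids. Liver 1 stands apart in Nqo1, Srxn1 and Me1, hepatocytes 1 in G6pdx and Me1, and the spheroids are furthest apart in Slc7a11.

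Livers were not alike in these genes. Nqo1 was at 70.9 TPM in liver 1 and at 16.3 and 16.98 TPM in livers 2 and 3, and Srxn1 was at 91.4, 40.9 and 26.7 TPM. Me1 ran the other way, at 139.4, 498.5 and 319.1 TPM. In the technical libraries Nqo1 was at 39.7 to 47.1 CPM (counts scaled to library size) in the 3 of liver 1, at 6.16 to 16.99 CPM in those of liver 2 and at 6.90 to 13.9 CPM in those of liver 3. Srxn1 was at 92.5 to 113.7, 36.6 to 56.4 and 20.5 to 45.97 CPM. Every library of liver 1 was thus above every library of the other livers in both genes, while libraries within livers 2 and 3 were up to over 2-fold apart. Among 8528 genes with a mean of at least 10 TPM over the livers, 263 were over 2-fold above both other livers in liver 1, 49 in liver 2 and 17 in liver 3, so liver 1 stood apart more widely. Nqo1 and Srxn1 were among the 263, as were 3 of 34 other NRF2 targets, the glutathione transferases Gsta1, Gsta2 and Gstm3.

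A few further genes, chosen after their values were seen, describe liver 1. Cyp2b9 was at 307 TPM in liver 1 and at 0.375 and 0 TPM in livers 2 and 3, and Cyp2b10 was at 169, 17.3 and 14.99 TPM. Cyp4a12a was lower there, at 35.4 TPM against 348 and 336 TPM. The macrophage markers summed to 1731, 736 and 887 TPM in livers 1 to 3. Stellate cell markers summed to 1281, 601 and 672 TPM and cholangiocyte markers to 561, 324 and 282 TPM. Kupffer cell markers, at 247, 381 and 490 TPM, and sinusoidal endothelial markers, at 234, 257 and 308 TPM, were lowest in liver 1. Whether any of these moved with Nqo1 and Srxn1 for a shared reason was not tested. Neither the sex nor the age of each liver is given by the labels.

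The order of Me1 matched that of the lipogenic genes among livers but not among hepatocytes or spheroids. Summed over 10 lipogenic genes, which SREBP1 and ChREBP control together with Me1, levels were 2706, 5768 and 3942 TPM in livers 1 to 3, and the order of Me1 was the same. In hepatocytes the sums were 6270, 2998 and 3863 TPM, and sample 1 was highest for both, but hepatocytes 2 and 3 were in the opposite order. In spheroids 1 and 2 the sums were 3209 and 2504 TPM, and Me1 ran the other way, at 405.0 and 519.9 TPM. In spheroids against hepatocytes, where the log2 difference of Me1 was 0.05, 3 of the 10 lipogenic genes were called lower, with a median of -0.97: Acss2 at -1.60, Thrsp at -1.32 and Mlxipl, which encodes ChREBP, at -1.16.

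**Figure D4:**
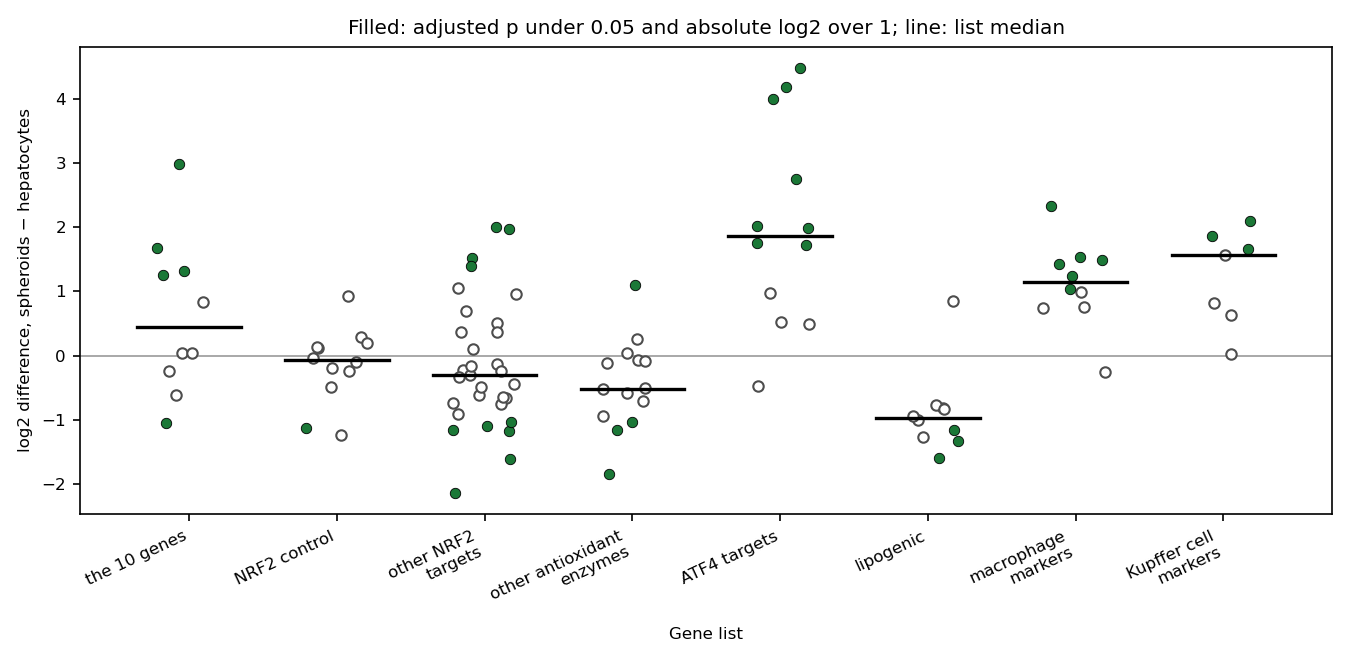
log2 differences between spheroids and hepatocytes for the 10 genes and 7 other lists, with filled points called and a line at each list's median. The ATF4 targets lie mostly above 0, the lipogenic genes mostly below, and the other NRF2 targets on both sides.

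Genes of the wider NRF2 programme were called in both directions in spheroids. Of 34 further targets, 31 were tested against hepatocytes. Of these 31, 4 were called higher, where 8.13% of all genes were, and 6 lower, where 9.11% were. Their median log2 difference was -0.30. Among the largest were Gsta4 at -2.14 and Gsta2 at -1.62, glutathione transferases, and Cd36 at 2.01, a fatty acid transporter, and Gsta1 at 1.98. The other 2 called higher were glutathione synthetase Gss at 1.52, from 54.2, 61.4 and 65.2 TPM to 208.7 and 223.1 TPM, and Pgd of the pentose phosphate pathway at 1.4. Members of the same transferase family thus stood on both sides, and near-identical family members can exchange reads. Against livers 3 of 32 tested were called higher and 2 lower, a count near the 19.2% of all genes called in either direction. The targets not tested against hepatocytes did not pass the filter on low counts. They were Cbr3, at means of 20.96 TPM in spheroids and 0.63 TPM in hepatocytes, Gpx2, at 1.09 and 0.28, and Aldh3a1, at 1.59 and 2.16.

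Of 12 genes that control NRF2, which include Keap1, Cul3 and Bach1, 1 was called in spheroids against hepatocytes, a count near the shares of all genes given above. It was the small MAF gene Mafg, lower at -1.13 ± 0.24 (edgeR, adjusted p = 0.0124). Mafg was at 24.4 and 12.2 TPM in spheroids and 33.4, 29.9 and 30.8 TPM in hepatocytes. Keap1 was at 37.8 and 32.6 TPM in spheroids and at 31.7, 34.2 and 30.5 TPM in hepatocytes, which overlapped. Of 14 antioxidant enzymes outside the NRF2 lists, 1 was called higher and 3 lower, with a median of -0.52. Glutaredoxin Glrx was higher at 1.10, while glutathione peroxidase Gpx1 at -1.85, catalase Cat at -1.16 and superoxide dismutase Sod1 at -1.03 were lower.

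Between irises and livers, genes of the 10 differed in both directions. Nqo1 was at 155.3, 126.9 and 126.9 TPM in irises, Slc7a11 at 38.4, 41.6 and 40.4 TPM and G6pdx at 71.7, 70.2 and 81.5 TPM, and every iris lay above every liver in these 3 genes. Gclc, at 24.7, 26.1 and 26.6 TPM, Gclm, at 25.1, 24.9 and 25.3 TPM, and Me1, at 40.4, 52.4 and 53.1 TPM, lay below every liver. Called higher in irises were 3 of the 10, a count near the share of all genes, 29.8% of 15459 tested. They were Slc7a11 by 3.96 ± 0.27, G6pdx by 1.58 ± 0.21 and Nqo1 by 1.11 ± 0.45 (edgeR, adjusted p = 1.85e-06, 0.000145 and 0.0475). The Nqo1 difference was called only with all samples or without liver 1, where it was 2.08, and lost in each of the 5 other removals of a sample (0.77 to 1.18). Of the 34 other NRF2 targets, 2 were called higher in irises and 24 lower.

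Called lower in irises were 5 of the 10, where 22.1% of all genes were: Gclc by -3.66 ± 0.14, Me1 by -3.63 ± 0.44, Gclm by -2.43 ± 0.10, Srxn1 by -1.34 ± 0.36 and Txnrd1 by -1.13 ± 0.10. These values depend on scaling. With library size alone the median of all genes moved from 0.11 to 0.80, the share of calls that were higher in irises rose from 57.4% to 77.5%, and Srxn1 at -0.68 and Txnrd1 at -0.45 were no longer called. Nfe2l2 and Hmox1 changed sign with it, from -0.53 to 0.15 and from -0.11 to 0.56, so no direction is given for them. The part of the hepatocyte marker reads given above in these iris levels was not tested.

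In explants none of the 10 genes was called against irises, in edgeR, DESeq2 or limma-voom, where edgeR called 6.47% of 16764 genes. At an unadjusted p under 0.05, 4 of the 10 were higher, where 2956 of the 16764 genes were. Gclc was at 36.1, 33.2, 33.9, 42.04 and 39.1 TPM in explants 1, 2, 4, 5 and 6, all above the 3 irises. Its log2 difference was 0.62 ± 0.12 (edgeR, adjusted p = 0.0109), under the fold limit. Hmox1 was at 75.3, 100.4, 74.5, 83.6 and 95.6 TPM in explants and 73.3, 69.5 and 71.3 TPM in irises. All explants lay above all irises, by 0.38 ± 0.15 (edgeR, adjusted p = 0.141). Of the 10 macrophage markers 6 were called higher in explants, and explants 2 and 6, with the most Hmox1, had the highest macrophage sums of 3344 and 4167 TPM. The part of these cells was not tested. With 59% to 82% iris, the graft is the smaller part of each of these libraries.

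**Figure D5:**
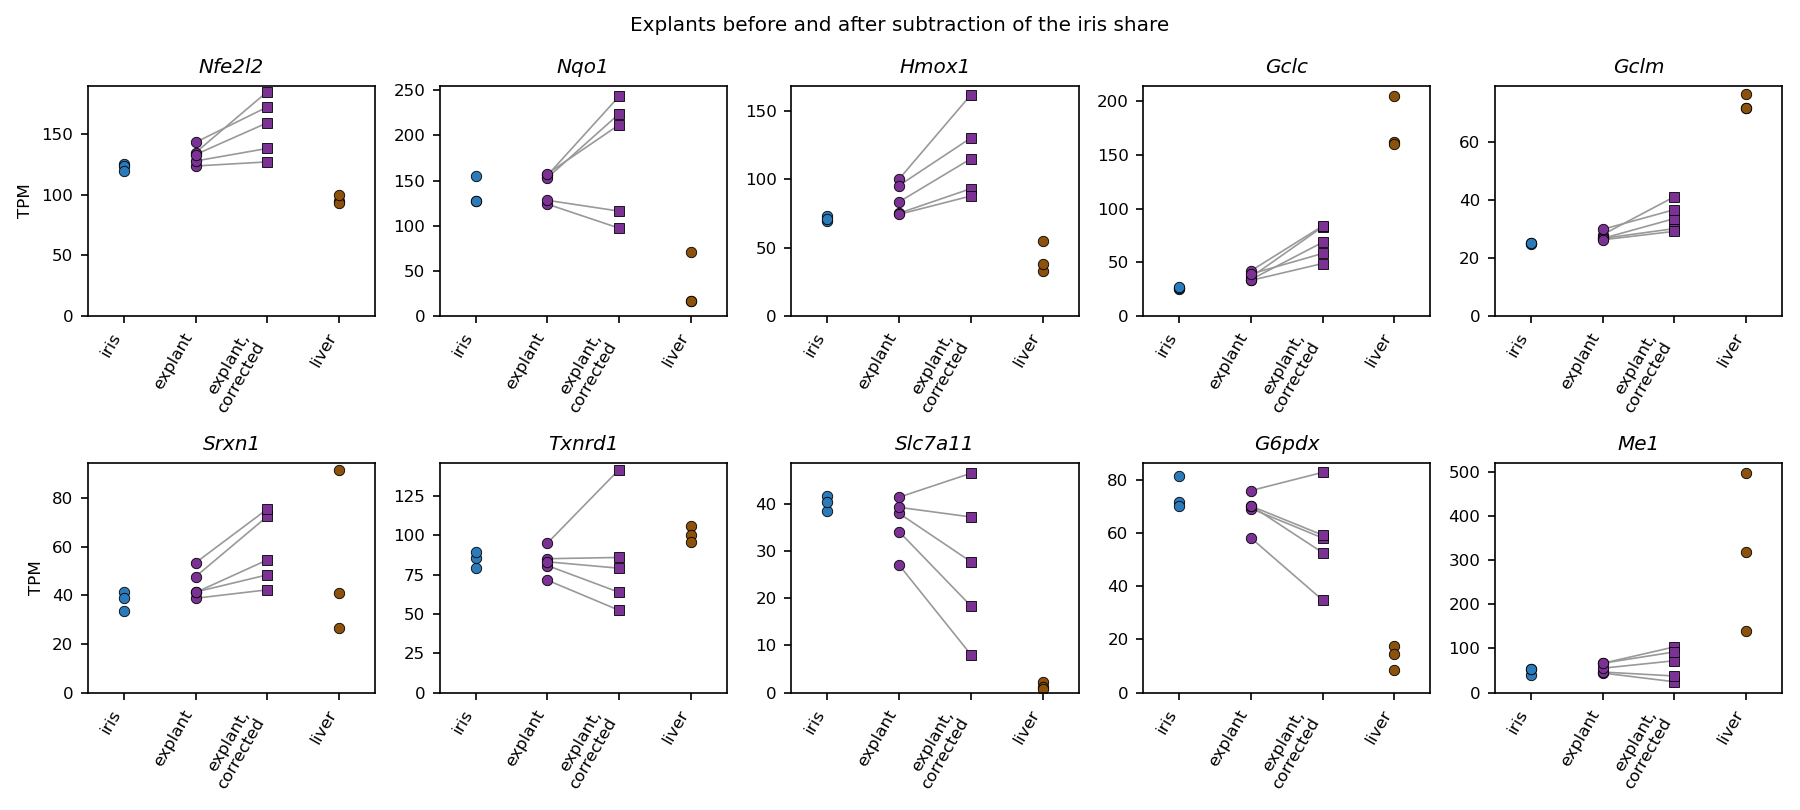
TPM of each gene in irises, in the 5 explants before (circles) and after (squares, joined by lines) subtraction of the iris share, and in livers. Slc7a11 after subtraction spreads from 8.03 to 46.4 TPM, while Gclc, Gclm and Me1 stay below every liver.

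To view the graft alone, the iris share was subtracted from each explant with the study's formula, which multiplies the remainder by 1 over the share that is not iris and so widens its error. Corrected explants were compared with livers by limma on log2(TPM + 1). The median over all 21002 genes tested was 0.61 on that scale, so values relative to it are given too. Of the 10 genes 4 were called higher, where 11.8% of all genes were, and 3 lower, where 3.01% were.

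Nqo1 in corrected explants 1, 2, 4, 5 and 6 was at 243.3, 97.3, 223.9, 211.7 and 116.1 TPM, above every liver. The log2 difference was 2.58 ± 0.53 (limma, adjusted p = 0.0126), or 1.97 relative to the median of all genes. Hmox1 was at 93.3, 162.0, 87.9, 115.2 and 130.4 TPM, also above every liver, with a log2 difference of 1.46 ± 0.29 (limma, adjusted p = 0.011), or 0.86 relative to the median. In the same comparison 8 of 10 macrophage markers were called higher, with corrected sums of 3200 to 8655 TPM against 736 to 1731 TPM in livers.

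Slc7a11 was at 27.7, 37.2, 46.4, 18.3 and 8.03 TPM in corrected explants and G6pdx at 82.9, 58.2, 52.7, 59.3 and 34.8 TPM. All were above the livers, by log2 differences of 3.41 ± 0.60 and 2.01 ± 0.37 (limma, adjusted p = 0.00697 and 0.00817), or 2.80 and 1.41 relative to the median. Slc7a11, G6pdx and Nqo1 are the genes that were called higher in irises than in livers. In TPM, the scale of this subtraction, 2 further genes lay higher in every iris than in every liver. They were Hmox1, at 69.5 to 73.3 against 32.9 to 54.8 TPM, and Nfe2l2, at 120.2 to 125.7 against 93.1 to 99.7 TPM. In the count fits the direction of both changed with scaling. Of 9 iris markers, 8 were tested and 4 were still called higher in corrected explants than in livers, while 2 had a difference below 0. Sums over the 9 were 518 to 2068 TPM against 347 to 353 TPM. Foxc1, Pmel, Mlana, Acta2 and Myh11 were at 0 in some corrected explant. The 6 lens markers summed to 0 to 286 TPM there, with a median of 0, against 51.4 to 67.4 TPM in livers. Some eye genes thus remained after subtraction and others did not. Graft and remaining iris cannot be told apart here.

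Gclc, at 83.1, 48.9, 68.6, 83.8 and 58.3 TPM, and Gclm, at 41.01, 30.1, 33.5, 29.1 and 36.6 TPM, stayed below every liver after correction. Their log2 differences were -1.37 ± 0.26 and -1.09 ± 0.25 (limma, adjusted p = 0.00852 and 0.0197). Me1 was at 24.4, 103.6, 37.6, 72.1 and 92.2 TPM, also below every liver, with a log2 difference of -2.26 ± 0.56 (limma, adjusted p = 0.0263). Relative to the median of all genes these 3 were at -1.97, -1.70 and -2.87. Nfe2l2 (127 to 185 TPM), Srxn1 (42.3 to 75.5 TPM) and Txnrd1 (52.3 to 141.9 TPM) were not called, at 0.69, 0.29 and -0.33.

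These calls were fragile. Without liver 3 the numbers called were 1 higher and 0 lower, without liver 2 they were 2 and 1, and Slc7a11 alone was called in every removal of a sample. With the corrected columns as deposited, in which explant 4 follows another formula, they were 1 and 1.

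Between corrected explants and spheroids Me1 alone was called among the 10. Me1 was lower in corrected explants by -2.97 ± 0.57 (limma, adjusted p = 0.0218), or -3.51 relative to the median of 0.54 over 21217 genes, of which 0.957% were called lower. The call was lost without either spheroid (adjusted p = 0.167 and 0.271). No gene of the 10 was called higher, where 5.00% of all genes were. The log2 differences of Nqo1 at 1.6 ± 0.44, Slc7a11 at 1.94 ± 0.77 and G6pdx at 1.05 ± 0.42 had an unadjusted p under 0.05 (limma, adjusted p = 0.078, 0.228 and 0.226), as did those of Nfe2l2 at -0.64 ± 0.24 and Gclc at -0.84 ± 0.36 (limma, adjusted p = 0.21 and 0.261). These 5 were not called. In the same comparison 3 of the 12 genes in the ATF4 list were called lower, the targets Asns and Phgdh and Atf4 itself.

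Across the 5 group means, the genes fell into patterns that were described by the root mean square difference of their log2(TPM + 1) after centring. The closest pair was Nfe2l2 and Srxn1 (0.28), followed by Nqo1 and G6pdx (0.34), Nfe2l2 and Hmox1 (0.35) and Gclc and Me1 (0.45). Gclc and Gclm, the subunits of a single enzyme, differed by 0.69. Among 13366 genes with a mean of at least 5 TPM, the 5 most like Nqo1 were Map4, Nfya, Cnst, Srebf2 and Klhl11 (0.05 to 0.07). Those most like Srxn1 were 1700017B05Rik, Ppp4r4, Sac3d1, As3mt and Eif6 (0.09 to 0.13). None of these 10 like genes is among the NRF2 targets listed here.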

How the data were processed

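The members and gene lists were chosen with earlier results of these data known. Per the labels and the study's methods, reads were aligned with TopHat2 to mm10, deduplicated by molecular identifier, and counted over exons by featureCounts (version 1.4.6-p5 in the file headers), a read that overlaps several genes being counted for each. The authors deposited counts per library, counts summed per sample, TPM before correction, and TPM after subtraction of iris. In the corrected table as deposited, the explant values are a score made by the authors by subtracting the iris mean times the iris share and dividing by the rest, except in explant 4, where 16.3% of genes follow that formula. The correction was therefore recomputed from the deposited TPM and the iris shares the table implies. Counts per sample equalled the sum of 3 libraries, and TPM could be recomputed from them.

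Counts were tested with edgeR 4.0.16 (TMM, quasi-likelihood, genes filtered on low counts, only the groups compared), and corrected explants with limma 3.58.1 on log2(TPM + 1), a scale that understates changes of low genes, for genes with a mean of at least 1 TPM. All p-values were adjusted over all genes tested. DESeq2 1.42.0, limma-voom, other scalings, filters, designs and the removal of each sample were alternatives. Each fit was tested on simulated data with 200 changed genes. All 10 members were named, and of other lists up to 4 genes with the largest called differences, plus the others called where they were 5 or fewer and single genes where the text says so. Deviations of same-numbered samples from their group means had correlations of -0.103 to 0.232 over 11526 genes. Differently numbered samples were not compared, so a shared origin was not tested. The labels state no pairing, and numbers were not used as pairs. Gene coordinates are those of the count files. Promoter sequences came from RefSeq for 8 of 10 genes. Intervals and p-values cover the spread among these samples only.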

Additional observations from a re-analysis of the deposited data

How the results depend on the processing

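Of 206 counts of members called under the alternatives, 182 stayed within 1.5 times the main count, and no member called in the main result changed sign. This limit lets a count of 3 fall to 2, as with limma-voom for members higher in spheroids than in livers. Without a fold limit, Gclc was the 1 member higher in explants than in irises and 2 were lower in spheroids than in livers. With library size alone, 0 were lower in spheroids than in hepatocytes, where Txnrd1 turned to 0.038, and 3 were lower in irises than in livers, where Nfe2l2 was at 0.15 and Hmox1 at 0.56. When single samples were removed, members called lower in spheroids than in hepatocytes ran from 0 to 1 and those called higher than in livers from 1 to 6. In spheroids against hepatocytes G6pdx then ran from -0.23 to 0.93 and Me1 from -0.29 to 0.80, and in irises against livers Hmox1 ran from -0.26 to 0.052.

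For corrected explants against livers, removals gave 1 to 4 members higher and 0 to 3 lower, with Srxn1 between -0.10 and 0.77. The columns as deposited gave 1 higher and 1 lower. edgeR on uncorrected counts gave 5 lower, with Nfe2l2 at -0.35 and Srxn1 at -1.04, and TPM before correction put Srxn1 at -0.072. For corrected explants against spheroids, removals gave 0 to 1 lower, the deposited columns 0 lower, TPM before correction 3 higher and 3 lower, and edgeR on uncorrected counts 1 higher and 4 lower. Uncorrected values mix iris and graft by construction. The cause of the other changes was not tested.

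The replicate number as a block, a pairing that the labels do not state, gave 0 higher and 0 lower for corrected explants against livers. It gave 0 lower against spheroids, where it calls no gene at all. Under it Srxn1 was at -0.43 and Txnrd1 at 0.10 against livers, and G6pdx at -0.083 and Me1 at -0.12 in spheroids against hepatocytes. The block left the counts of the other comparisons at their main values. Among 390 further log2 differences of members under alternatives, which the text does not give, 23 had the opposite sign. With 2 spheroids and 3 livers, single samples decide several calls, and Slc7a11 in hepatocytes rests on 8 to 15 counts.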
